A study of Mus musculus with 26 samples.

Results

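MaTAR25 (1200007C13Rik, ENSMUSG00000087684) is a long noncoding RNA (lncRNA) gene of distal mouse chromosome 2, and the genes considered here are MaTAR25 and 7 listed neighbours, Snai1, Ube2v1, Ptpn1, Pard6b, Bcas4, Adnp and Dpm1. They were chosen by name and ordered by the distance of their annotated start from that of MaTAR25. Of these 8 genes, 7 had a row in the count files, which hold 45318 genes in all, and all 7 were tested. No row of the count files could be matched to Bcas4 by its symbol, and it was not analysed here. The question was whether the deletion at MaTAR25 came with a change of its neighbours in both deletion clones.

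Polyadenylated RNA was sequenced from 4T1 cells, a mammary tumor cell line of BALB/c mice. The 2 control libraries came from cells labelled wild type, which carried a Renilla luciferase guide RNA in place of the MaTAR25 guides. The 3 KO1 and 4 KO2 libraries came from cells labelled MaTAR25-/-, in which a pair of guides had been used with Cas9 to delete the start of the gene. KO1 and KO2 are clones, each grown from a single sorted cell, and by the study's methods the control cells were single-cell clones as well. An effect of the deletion and any other property of 1 clone cannot be told apart, and a difference shared by both KO clones cannot be told apart from a property of the control cells, for which the labels do not say whether both libraries came from 1 clone. Nothing in the labels says whether the libraries of a group came from separate cultures, and p-values then measure only the spread between libraries.

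Some lncRNA genes act on the genes beside them, through the RNA, through the act of transcription or through DNA elements in their promoter. Others act on distant genes and leave their neighbours alone. A deletion that removes a promoter touches the RNA and the DNA at once, which is why the levels of flanking genes are usually measured in such clones. The neighbours here are unrelated in function and include a repressor of epithelial genes (Snai1), a tyrosine phosphatase (Ptpn1), a cell polarity adaptor (Pard6b) and a chromatin protein (Adnp).

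On GRCm38, MaTAR25 lies on the minus strand at chr2:167827693-167833646 in the GENCODE vM21 annotation. Exon 1 (chr2:167832931-167833646) is 716 bp long and exon 2 (chr2:167827693-167829431) is 1739 bp long. The guides are shown because they mark where the DNA was cut. In each, the 20 bases of the guide are in lower case and the PAM read from the genome is in capitals.
Downstream gRNA, minus strand, chr2:167833457-167833476: aagtcagactcttggcgggcGGG
Upstream gRNA2, plus strand, chr2:167833765-167833784: aacttcccggccttatcgtcTGG
Upstream gRNA3, plus strand, chr2:167833805-167833824: gcctgacctagtttctcaccCGG
Upstream gRNA1, plus strand, chr2:167833958-167833977: gtggccccagggtgatgactGGG
Each guide had 1 exact match on chromosome 2. The downstream guide cuts 187 bases inside exon 1, and the upstream guides cut 135, 175 and 328 bases before the annotated start. Joined to the downstream cut, they would remove 322, 362 and 515 bp. These lengths were computed from the guide positions and were not measured here. The study reports a range of deletion lengths that holds the longest of them, starts above the shorter ones and extends past the longest. How much of exon 1 each clone lost is therefore not settled here. Each of these computed deletions would take 187 bases of exon 1, leave its other 529 bases and leave exon 2 whole. The sources used here do not say which pair made which clone.

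The stretch from 250 bases before the annotated start to 50 bases after it (GRCm38, chr2:167833597-167833896, minus strand) shows what lies around the deleted start. The capitals mark the targets of upstream gRNA3 and upstream gRNA2 with their PAMs, here read on the opposite strand to the guides.
MaTAR25 start: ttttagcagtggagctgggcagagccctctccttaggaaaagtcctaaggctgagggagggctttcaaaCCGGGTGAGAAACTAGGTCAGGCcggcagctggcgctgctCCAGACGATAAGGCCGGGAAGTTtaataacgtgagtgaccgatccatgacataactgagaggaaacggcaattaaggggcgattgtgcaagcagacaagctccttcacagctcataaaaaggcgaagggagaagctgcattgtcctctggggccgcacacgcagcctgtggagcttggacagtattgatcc
Everything from the upstream cut to the end of this stretch would be lost by the computed cuts with either of these guides, the annotated start included. None of the measured neighbours has a base in the deleted stretch.

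**Figure D1:**
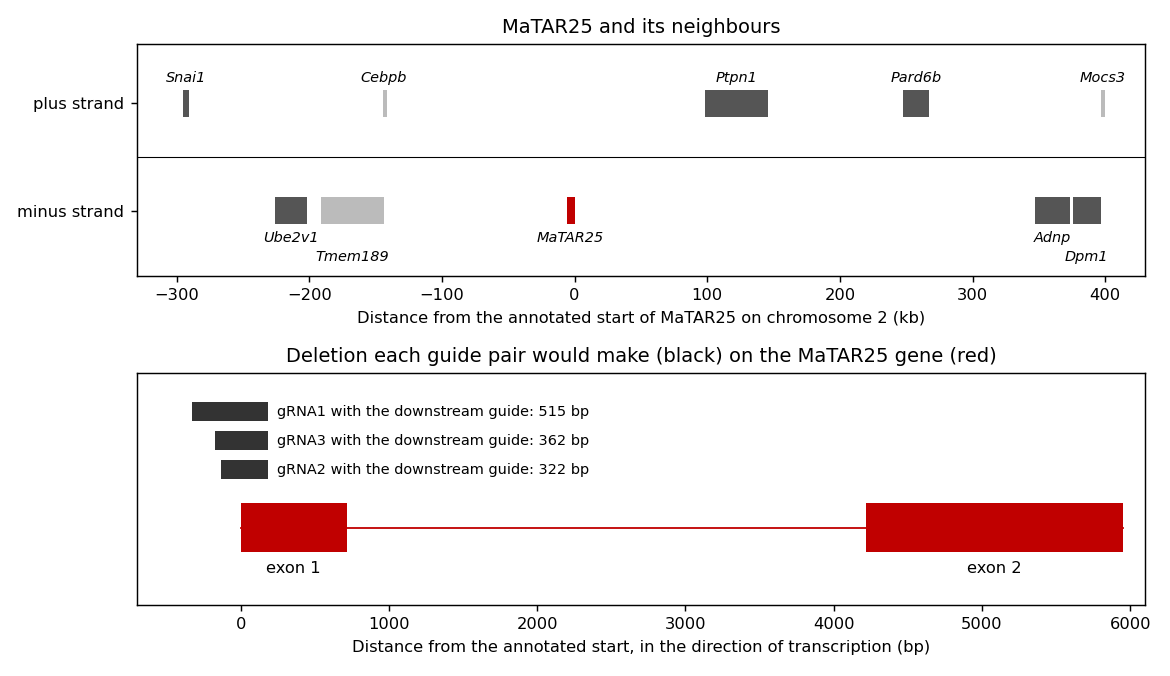
Upper panel: position of MaTAR25 (red), the listed neighbours (dark grey) and Cebpb, Tmem189 and Mocs3 (light grey) by distance in kb from the annotated start of MaTAR25, plus strand above and minus strand below. Lower panel: the 2 exons of MaTAR25 (red) by distance in bp from the start in the direction of transcription, with the deletion that each guide pair would make (black); each deletion ends 187 bp inside exon 1.

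The neighbours stand on both sides of MaTAR25. Ptpn1 starts 98.4 kb from it (chr2:167932057-167979385), Pard6b 247.4 kb (chr2:168081004-168101203), Adnp 373.5 kb (chr2:168180986-168207112) and Dpm1 396.9 kb (chr2:168209048-168230591), all toward higher coordinates. Toward lower coordinates, Ube2v1 starts at a distance of 201.6 kb (chr2:167607638-167632095) and Snai1 at 295.5 kb (chr2:167538195-167542814). Cebpb, which the study also treats as a neighbour, lies between MaTAR25 and Ube2v1 (chr2:167688915-167690418). The map of the locus shows that no protein-coding gene of this set lies closer to MaTAR25 than Ptpn1.

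The libraries held 25367211 to 61110585 counts on genes. The epithelial transcripts Epcam (104 to 488 counts per 1000000 counted reads, CPM), Cdh1 (354 to 940 CPM) and Krt8 (411 to 1410 CPM) were present in all 9 libraries. So were Krt18 (540 to 1410 CPM) and Krt19 (80.2 to 219 CPM), while Krt14 was low (1.23 to 17.1 CPM). Krt8 was called higher in KO1 (log2 fold change 1.32, edgeR adjusted p = 0.0232) and Cdh1 lower in KO2 (-0.85, edgeR adjusted p = 0.0105). Of the receptor transcripts that the description of 4T1 as triple-negative concerns, Pgr had at most 0.022 CPM, whereas Esr1 had 10.2 to 25.2 CPM and Erbb2 56.8 to 140 CPM. The 3 leukocyte transcripts summed to at most 0.927 CPM in a library and the 3 endothelial ones to at most 1.56 CPM, both in KO2, against at most 0.0305 and 0.214 CPM in control. Cd3e was at 0 in 8 libraries, Lyz2 in 6 and Kdr in 7, but Cdh5 (up to 1.39 CPM) was called higher in KO2 (edgeR adjusted p = 0.0317) and Ptprc reached 0.905 CPM (edgeR adjusted p = 0.119 in KO2). Of the fibroblast markers Col3a1 had no count in any library, Col1a1 reached 3.99 CPM and was called lower in both clones (log2 fold changes -3.43 and -2.75, edgeR adjusted p = 0.0149 and 0.0217), and Pdgfra had 11.7 to 46.9 CPM. The 3 summed to 20.3 to 25.8 CPM in control, 21.2 to 40.3 CPM in KO1 and 11.8 to 47.6 CPM in KO2. The part of other cells in the results was not tested.

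MaTAR25 itself was low in control cells and lower in both clones. The study picked its KO clones by genomic PCR, sequencing and qRT-PCR. Its control clones were picked by qRT-PCR for a MaTAR25 level like that of the parental cells. A lower level in the KO libraries thus follows from that choice, and its p-values are not independent support. Control libraries 1 and 2 had 0.768 and 0.915 CPM, from 35 and 30 counts. The KO1 libraries had 0.0319, 0.232 and 0 CPM, from 2, 7 and 0 counts, and the KO2 libraries 0.307, 0.0421, 0.204 and 0.123 CPM, from 11, 1, 9 and 6 counts. All 7 KO libraries were below both control libraries. The count of 0 in KO1 replicate 3 allows up to 0.0812 CPM (3 counts, counting error only).

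The mean fell from 0.842 ± 0.104 CPM (SD, n = 2) in control to 0.088 ± 0.126 CPM (SD, n = 3) in KO1 and 0.169 ± 0.113 CPM (SD, n = 4) in KO2. On the log2 scale the change was -3.39 in KO1 (SE 0.98, edgeR adjusted p = 0.0341) and -2.26 in KO2 (SE 0.83, edgeR adjusted p = 0.0785), where calls were made at an adjusted p under 0.1. These are 10.5-fold and 4.78-fold lower levels. KO2 and KO1 differed by 1.13 on the log2 scale (95% interval -0.94 to 3.21, edgeR adjusted p = 0.451), a difference within the error. MaTAR25 passed the filter on low counts through the 2 control libraries and 1 KO2 library. Leaving out either control library ended both calls. Leaving out KO1 replicate 1 ended the KO1 call (edgeR adjusted p = 0.113). The KO2 call ended without KO2 replicate 2 or 4 (edgeR adjusted p = 0.101 and 0.134). A fit with the replicate number as a block also ended the KO2 call (log2 fold change -1.74, edgeR adjusted p = 0.323). Of the 2455 exonic bases 2268 lie outside the computed deletions, and the count over the whole gene is not a direct measure of the deletion.

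Ptpn1, the nearest protein-coding neighbour, encodes an endoplasmic reticulum phosphatase (PTP1B) that removes phosphate from the insulin receptor and other receptor kinases. It moved in opposite directions in the 2 clones. Control libraries had 100 and 103 CPM, KO1 libraries 70.9, 57 and 84.6 CPM, and KO2 libraries 156, 140, 152 and 157 CPM. Every KO1 library was below both controls and every KO2 library was above both, and no library of one clone overlapped the other.

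Ptpn1 fell by 0.52 on the log2 scale in KO1 (SE 0.17, edgeR adjusted p = 0.0562) and rose by 0.57 in KO2 (SE 0.17, edgeR adjusted p = 0.0371). The difference between the clones was 1.09 (SE 0.15, 95% interval 0.76 to 1.43, edgeR adjusted p = 0.00474), a 2.13-fold higher level in KO2, and its adjusted p was at most 0.027 under the alternatives tried. An exact two-sided permutation test of KO2 against KO1 gave p = 0.0286, the smallest that its 35 splits allow. With both clones as 1 group the change was 0.20 (SE 0.39, edgeR adjusted p = 0.76). The calls against control rested on few libraries: both were lost without Control replicate 1 or without Control replicate 2, and that in KO1 also without KO1 replicate 1 or without KO1 replicate 2 (adjusted p up to 0.25 in KO1 and 0.217 in KO2). The KO1 call was lost with no filter on low counts too (adjusted p = 0.103).

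Pard6b encodes an adaptor of the Par polarity complex, which sets the apical side of epithelial cells. Among the listed neighbours it alone was called lower in both clones. Control libraries had 122 and 108 CPM, KO1 libraries 78.4, 75.7 and 82.3 CPM, and KO2 libraries 71.6, 51.3, 70.9 and 46.6 CPM. All 7 KO libraries lay below both controls, and the 4 KO2 libraries below the 3 of KO1.

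Pard6b had a log2 fold change of -0.55 in KO1 (SE 0.21, edgeR adjusted p = 0.0874) and -0.94 in KO2 (SE 0.19, edgeR adjusted p = 0.00976), that is 1.46-fold and 1.91-fold lower. The clones differed by -0.39 (95% interval -0.78 to 0, edgeR adjusted p = 0.172), a difference that was called without KO2 replicate 3 (adjusted p = 0.087). With both clones as 1 group the level was 1.69-fold lower (log2 fold change -0.76, SE 0.22, edgeR adjusted p = 0.0408), and the exact two-sided permutation test of the 7 KO libraries against control gave p = 0.0556, where 36 splits allow 0.0278 at the lowest. The KO1 call was lost without any 1 of the control or KO1 libraries (adjusted p up to 0.385) and with no filter on low counts. The KO2 call was lost without Control replicate 1 (log2 fold change -0.83). The call with both clones as 1 group was lost without Control replicate 1 or Control replicate 2 (log2 fold changes -0.65 and -0.84).

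**Figure D2:**
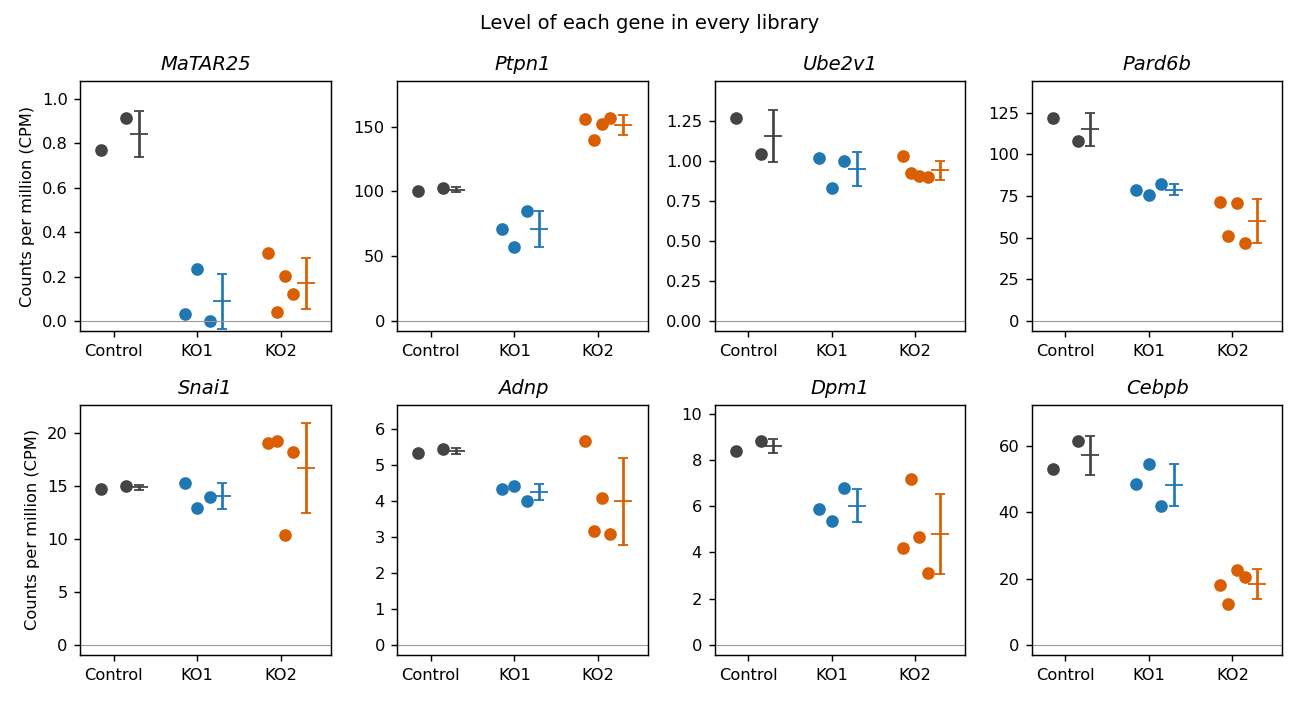
CPM of each of the 7 measured genes and of Cebpb in every library (circles; 2 control, 3 KO1 and 4 KO2), with the mean and SD of each group beside them; axes are linear and differ between panels, and the lower SD of MaTAR25 in KO1 reaches below 0. Ptpn1 lies between 57 and 84.6 CPM in KO1 and between 140 and 157 CPM in KO2, on either side of the controls, while Pard6b lies below the controls in both clones.

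Dpm1, the catalytic subunit of the enzyme that makes dolichol-phosphate mannose for glycosylation, was called in KO2. Control libraries had 8.41 and 8.82 CPM, KO1 libraries 5.9, 5.37 and 6.79 CPM, and KO2 libraries 4.21, 7.2, 4.66 and 3.11 CPM. All 7 KO libraries were below both controls, and the range of KO2 held that of KO1. Of the exonic bases of Dpm1 11.9% are shared with the read-through gene Gm20716, and how reads on them were counted is not given.

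Dpm1 had a log2 fold change of -0.52 in KO1 (SE 0.35, 95% interval -1.31 to 0.28, edgeR adjusted p = 0.322) and -0.85 in KO2 (SE 0.33, 95% interval -1.59 to -0.11, edgeR adjusted p = 0.0952). The difference between the clones was -0.33 (95% interval -1 to 0.34, edgeR adjusted p = 0.496). The KO2 call lay just inside the threshold and was lost without any 1 library other than KO2 replicate 2. It was also lost with no filter on low counts, with the replicate number as a block and with only the groups compared. In that last fit Dpm1 was called in KO1 instead (adjusted p = 0.0768).

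Snai1, a zinc-finger repressor of Cdh1 that drives loss of epithelial character, was not called in either clone. Control libraries had 14.7 and 15 CPM, KO1 libraries 15.3, 12.9 and 13.9 CPM, and KO2 libraries 19, 19.2, 10.4 and 18.2 CPM. In both clones libraries lay above and below the controls, and KO2 replicate 3 stood apart from the rest of its group. Its log2 fold change in KO1 was -0.08 (95% interval -0.71 to 0.55, edgeR adjusted p = 0.858) and in KO2 0.17 (95% interval -0.44 to 0.77, edgeR adjusted p = 0.686). Changes of up to 0.71 lower or 0.77 higher on the log2 scale are within these intervals. Without KO2 replicate 3 the change in KO2 was 0.34 (edgeR adjusted p = 0.218).

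Ube2v1 encodes an enzyme-like partner, itself without catalytic activity, with which Ube2n builds ubiquitin chains used in signalling. Control libraries had 1.27 and 1.04 CPM, KO1 libraries 1.02, 0.83 and 1 CPM, and KO2 libraries 1.03, 0.926, 0.905 and 0.899 CPM. All 7 KO libraries lay below both controls by a small margin, and the clones overlapped. For Ube2v1 this gave a log2 fold change of -0.28 in KO1 (95% interval -1 to 0.44, edgeR adjusted p = 0.566) and -0.30 in KO2 (95% interval -0.98 to 0.39, edgeR adjusted p = 0.51). The exact two-sided permutation test of all KO libraries against control gave the lowest p that it allows, 0.0278, for a mean difference of -0.15 in log2(CPM + 1). These values rest on 22 to 64 counts per library. Of the exonic bases of Ube2v1 69.1% are shared with other annotated genes, mostly the read-through gene Gm20431, and 840 bases are its own. How reads on shared bases were counted is not given, and the level of Ube2v1 may stand for only a part of the gene.

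Adnp encodes a homeobox protein that binds chromatin with the remodeler Chd4 and the HP1 proteins Cbx1 and Cbx3. Control libraries had 5.33 and 5.46 CPM, KO1 libraries 4.33, 4.41 and 4 CPM, and KO2 libraries 5.66, 3.16, 4.07 and 3.07 CPM. The 3 KO1 libraries and 3 of the 4 KO2 libraries were below both controls. On the log2 scale Adnp differed from control by -0.34 in KO1 (95% interval -1.09 to 0.40, edgeR adjusted p = 0.487) and -0.44 in KO2 (95% interval -1.14 to 0.27, edgeR adjusted p = 0.342), and neither was called. Of its exonic bases 82.1% are shared with the read-through gene Gm20716, which left 957 bases. Gm20431 and Gm20716, whose exonic bases are all shared with the genes they span, had no count in any library. Reads on those bases were thus not credited to them, and the level of Adnp may stand for only a part of the gene.

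Against these single values stands a wide background, since 31.6% of the 15023 genes tested were called in KO1 (15.9% higher and 15.7% lower) and 31.4% in KO2 (16.5% higher and 15% lower). Of the 6 measured neighbours, 2 were called in KO1 (Ptpn1 and Pard6b, both lower; 33.3%) and 3 in KO2 (Pard6b and Dpm1 lower, Ptpn1 higher; 50%). A call in both clones in the same direction was made for 1 of 6 neighbours (16.7%), Pard6b, and for 18.4% of all genes, of which 8.45% of all genes were lower in both. A call in both clones in opposite directions was made for 1 of 6 neighbours, Ptpn1, and for 0.366% of all genes (55 genes). Both clones were compared with the same 2 control libraries.

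Between the clones, 1 of the 6 neighbours was called, Ptpn1, against 19.6% of all genes (10.2% higher in KO2). With both clones as 1 group 1 was called, Pard6b, lower, against 22.6% of all genes (10.7% lower). KO1 and control libraries did not overlap for 6 of the 7 measured genes, MaTAR25 included (all lower; 66.9% of all genes), and KO2 and control libraries for 5 (4 lower and Ptpn1 higher; 46.9%). All 7 KO libraries stood apart from control for 4 genes, MaTAR25, Ube2v1, Pard6b and Dpm1, each lower in KO (34.4% of all genes). MaTAR25 is in these counts although the clones were picked on its level. KO1 and KO2 libraries stood apart for 2 genes, Pard6b and Ptpn1 (24.5% of all genes). The shares of all genes given for libraries that did not overlap or stood apart count both directions. Shares for lower genes alone were not computed. The median log2 fold change of the 6 neighbours was -0.43 in KO1 and -0.37 in KO2, where the median of all genes was 0.02 and 0.03. In all, 14 exact permutation tests of single genes were run, and their p-values are not adjusted.

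**Figure D3:**
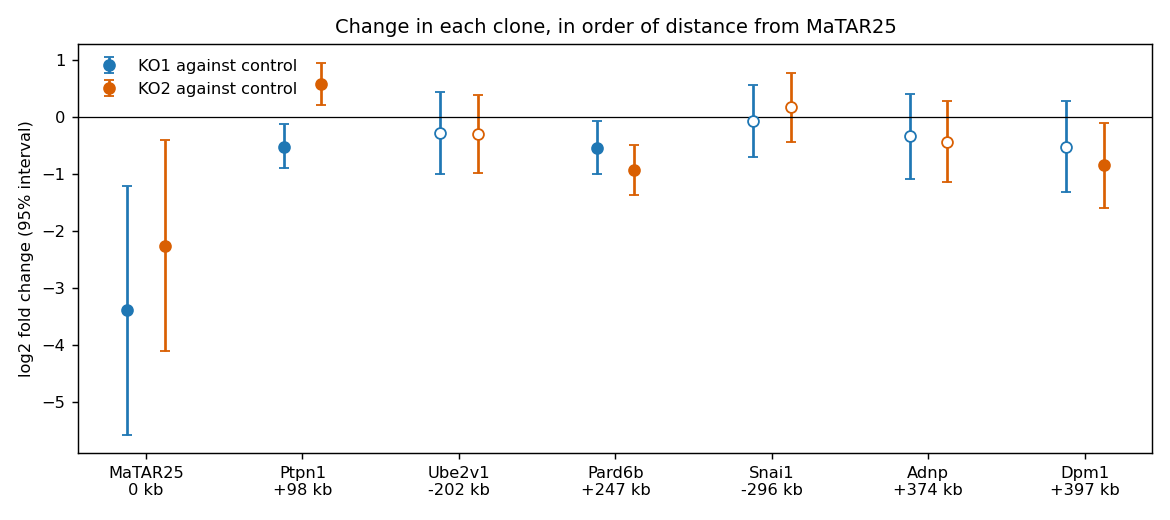
log2 fold change against control of the 7 measured genes in KO1 (blue) and KO2 (orange) with 95% intervals, from left to right in order of distance from MaTAR25; filled circles were called at an edgeR adjusted p under 0.1. MaTAR25 and Pard6b are below 0 in both clones, Ptpn1 has opposite signs (-0.52 and 0.57), and no steady change with distance is seen.

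The order of the levels was compared per kb of exonic sequence not shared with another gene. This assumes that reads on shared bases were not counted, which was not tested here. The divisor holds the exons of all transcripts of a gene in GENCODE vM21, 6594 bases for Dpm1 and 840 for Ube2v1. Reads were counted over GENCODE vM5 genes. Which transcripts the cells made was not tested, and the order depends on it. Gm20431 and Gm20716, with all their exonic bases shared, had no count in any library, so reads on those bases were not credited to them. In control cells Pard6b was highest at 33.8 ± 2.91 CPM per kb (SD, n = 2), then Ptpn1 at 18.3 ± 0.3, Snai1 at 9.17 ± 0.132 and Adnp at 5.64 ± 0.0937. Ube2v1 (1.38 ± 0.199) and Dpm1 (1.31 ± 0.0439) did not differ beyond their spread, and MaTAR25 was last at 0.343 ± 0.0423 CPM per kb. KO1 kept this order, with Pard6b at 23.2 and Ptpn1 at 12.8 CPM per kb. In KO2 the first and second places were exchanged, with Ptpn1 at 27.3 ± 1.45 and Pard6b at 17.7 ± 3.84 CPM per kb (SD, n = 4).

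Cebpb, a transcription factor required in mammary epithelium, lies 144.7 kb from MaTAR25. Control libraries had 53 and 61.5 CPM, KO1 libraries 48.7, 54.5 and 41.9 CPM, and KO2 libraries 18.2, 12.2, 22.7 and 20.5 CPM. The KO1 libraries overlapped with control and the KO2 libraries lay far below. The fit gave a log2 fold change of -0.24 in KO1 (edgeR adjusted p = 0.519) and -1.64 in KO2 (edgeR adjusted p = 0.00232), and the difference between the clones was -1.39 (edgeR adjusted p = 0.00655). Of its exonic bases 20.7% overlap exons of Tmem189 on the other strand, and whether strand was used in counting is not given.

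The genes listed above are a selection, and all annotated genes with a start within 1 Mb of MaTAR25 were therefore examined. Of 58 such genes, 15 had no count in any library and 27 were tested. In KO1 9 were called (3 higher and 6 lower; 33.3%, against 31.6% of all genes) and in KO2 12 (4 higher and 8 lower; 44.4%, against 31.4%), and 7 were called in both clones in the same direction (25.9%, against 18.4% of all genes). Their median was -0.21 on the log2 scale in KO1 and -0.30 in KO2, beside 0.02 and 0.03 over all genes. Without Control replicate 1 or Control replicate 2, these counts were 2 or 3 in KO1, 4 or 5 in KO2 and 1 in both clones.

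Of the 7 genes called in both clones, 4 were lower and 3 higher. The lower ones were Gm14321, Pard6b, Rnf114 and Zfas1, and the higher ones Mocs3, B4galt5 and Cse1l. Gm14321, a long intergenic noncoding RNA 56.2 kb from MaTAR25, had 2.2 and 1.62 CPM in control, 0.574, 0.365 and 0.379 CPM in KO1 and 0.976, 0.884, 0.927 and 0.695 CPM in KO2. For Gm14321 the fold change on the log2 scale was -2.10 in KO1 (edgeR adjusted p = 0.00504) and -1.13 in KO2 (edgeR adjusted p = 0.0399), and KO2 stood 0.96 above KO1 (edgeR adjusted p = 0.0847). The KO2 call was lost without Control replicate 1 or Control replicate 2. It was also lost with no filter on low counts (edgeR adjusted p = 0.105) and with the replicate block (0.146). The call between the clones was lost without either control library, any KO1 library or KO2 replicate 1 (edgeR adjusted p up to 0.265). It was also lost with no filter, with the replicate block and with only the groups compared.

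The nearest tested gene of all on that side was 9230111E07Rik, a noncoding gene that shares 18.7% of its exonic bases with Gm14321 and starts 51.6 kb from MaTAR25. It had 1.05 and 0.976 CPM in control, 0.414, 0.464 and 0.298 CPM in KO1 and 0.781, 0.337, 0.656 and 0.531 CPM in KO2. All KO libraries were below control, with a log2 fold change of -1.37 in KO1 (edgeR adjusted p = 0.0447) and -0.80 in KO2 (edgeR adjusted p = 0.17). The KO1 call was lost without either control library or KO1 replicate 3, and with the replicate block (edgeR adjusted p = 0.113). On the other side Ptpn1 was the nearest tested gene.

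Rnf114, a ubiquitin ligase gene, fell by 0.51 in KO1 (edgeR adjusted p = 0.0768) and by 1.09 in KO2 (edgeR adjusted p = 0.00344) on the log2 scale. Its KO1 call was lost without any 1 of the control or KO1 libraries, with no filter (edgeR adjusted p = 0.139) and with the replicate block (0.13). Mocs3, which serves molybdenum cofactor synthesis and starts 397 kb away beside Dpm1, had 2.61 and 2.87 CPM in control, 5.87 to 6.18 CPM in KO1 and 4.02 to 5.61 CPM in KO2. Its rise was 1.14 in KO1 (edgeR adjusted p = 0.0219) and 0.73 in KO2 (edgeR adjusted p = 0.0858). Both calls were lost without Control replicate 1 or Control replicate 2. The KO2 call was also lost without any 1 KO1 library or without KO2 replicate 3. It was lost too with no filter (edgeR adjusted p = 0.289), the replicate block (0.231) and only the groups compared (0.184). Mocs3 and Dpm1 thus had fold changes of opposite sign in each clone, though Dpm1 was called in KO2 alone.

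B4galt5, a galactosyltransferase of glycolipid synthesis 484.5 kb from MaTAR25, rose from a mean of 50 CPM in control to 102 CPM in KO1 and 168 CPM in KO2 (log2 fold changes 1.02 and 1.75, edgeR adjusted p = 0.0264 and 0.00336). Cse1l, the exporter of importin alpha, rose by 0.91 in KO1 (edgeR adjusted p = 0.0116) and 0.54 in KO2 (edgeR adjusted p = 0.064). Without Control replicate 2 both Cse1l calls were lost. That of KO2 was also lost without Control replicate 1 or KO2 replicate 1, and with only the groups compared (edgeR adjusted p = 0.126). The B4galt5 call in KO1 was lost without either control library (adjusted p up to 0.166). Zfas1, a host gene of small nucleolar RNAs 770.7 kb away, fell from a mean of 428 CPM to 103 CPM in KO1 and 117 CPM in KO2 (log2 fold changes -2.06 and -1.87, edgeR adjusted p = 0.00147 and 0.00172), and both calls held without each library in turn. Genes of both signs among these 7 lay on both sides of MaTAR25.

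**Figure D4:**
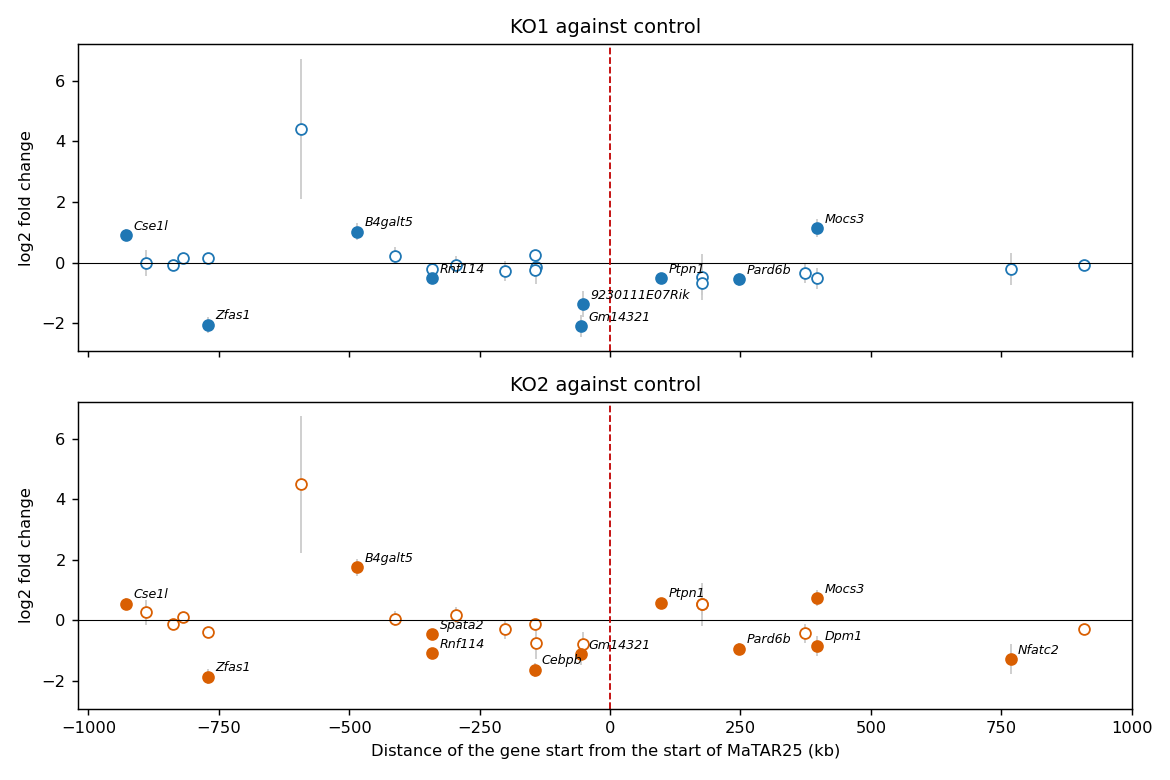
log2 fold change (with SE) of the 27 tested genes with a start within 1 Mb of MaTAR25 against their distance in kb, KO1 above and KO2 below; filled circles, named, were called at an edgeR adjusted p under 0.1, and the dashed line marks MaTAR25. The strongest called falls, of Gm14321 (-2.10 in KO1) and Zfas1 (-2.06 in KO1), stand 56.2 and 770.7 kb away, and called genes of both signs lie on either side.

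Along chromosome 2 as a whole, 1198 genes were tested, with a median log2 fold change of -0.15 in KO1 and -0.10 in KO2. In the 5 Mb window that holds MaTAR25, the median of 44 genes was -0.204 in KO1 and -0.22 in KO2, which ranked 209 and 248 from the highest among 283 windows of the genome with at least 20 tested genes. The window medians ran from -0.97 to 1.34 in KO1 and from -0.53 to 1.12 in KO2. These values are given without a test.

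Proteins known to work with the neighbours' products were read from the same fit, and all 15 were tested. In KO1 6 were called (2 higher and 4 lower; 40%, against 31.6% of all genes), in KO2 5 (1 higher and 4 lower; 33.3%, against 31.4%), and 4 in both clones in the same direction (26.7%, against 18.4%). The median of the 15 differences from control, on the log2 scale, was 0.03 for KO1 and 0.05 for KO2, beside 0.02 and 0.03 over all genes. Of the partners of Pard6b, the atypical protein kinase C gene Prkci was lower in both clones, by 0.89 in KO1 (edgeR adjusted p = 0.0147) and 1.05 in KO2 (edgeR adjusted p = 0.00588) on the log2 scale, from 260 and 305 CPM in control to 142 to 162 CPM in KO1 and 96.8 to 162 CPM in KO2. Pard3, the scaffold of the polarity complex, fell by 1.17 in KO1 (edgeR adjusted p = 0.00151) and by 0.61 in KO2 (edgeR adjusted p = 0.0175), from 178 and 205 CPM in control to 79.3 to 95.5 CPM in KO1 and 113 to 142 CPM in KO2. Prkcz, the second atypical kinase, was called lower in KO1 (log2 fold change -0.95, edgeR adjusted p = 0.0564) and had -0.60 in KO2 (edgeR adjusted p = 0.174). The small GTPase gene Cdc42 was not called, with -0.15 and 0.07.

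Ube2n, the catalytic partner of Ube2v1, rose by 0.73 in KO1 and 0.90 in KO2 (edgeR adjusted p = 0.0202 and 0.00815), while the related Ube2v2 had 0.44 and 0.57 and was not called. Insr, the insulin receptor and a substrate of the Ptpn1 phosphatase, fell by 0.83 in KO1 (edgeR adjusted p = 0.0169) and by 0.58 in KO2 (edgeR adjusted p = 0.0493). The related phosphatase gene Ptpn2 had 0.03 and -0.34, neither called. Cdh1, the E-cadherin gene that Snai1 represses, fell by 0.85 in KO2 (edgeR adjusted p = 0.0105) and had -0.41 in KO1 (edgeR adjusted p = 0.15). Snai2, a relative of Snai1, had a mean of 0.0153 CPM in control, 0.321 CPM in KO1 and 0.689 CPM in KO2 and was not called. Of the partners of Adnp, Cbx3 was called higher in KO1 (0.61, edgeR adjusted p = 0.0599), a call lost with no filter on low counts (edgeR adjusted p = 0.121). Chd4 (0.38 in KO1 and 0.09 in KO2) and Cbx1 (0.20 and -0.25) were not called. The other subunits of the Dpm1 enzyme, Dpm2 and Dpm3, had between 0.01 and 0.35 and were not called. Among these partners, without Control replicate 2 the calls of Prkci in KO1, Pard3 in KO2, Cdh1 in KO2, Ube2n in KO1, Insr in both clones, and Prkcz and Cbx3 in KO1 were lost (adjusted p up to 0.26), those of Ube2n, Insr, Prkcz and Cbx3 also without Control replicate 1 (up to 0.269), and those of Prkcz and Cbx3 also without KO1 replicate 2 or 3.

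Over the 9 libraries, the genes whose log2(CPM + 1) was most correlated with that of MaTAR25 were on several chromosomes. Of the 12030 genes that averaged 1 CPM or more, the first were the histone demethylase gene Kdm4a (Pearson r = 0.986), the antioxidant regulator Nfe2l2 (0.982), the stress phosphatase subunit Ppp1r15a (0.971), the splicing factor Tra2a (0.97) and the receptor gene Gpr157 (0.97). Nfe2l2 alone of these lies on chromosome 2. Pard6b had r = 0.723 and rank 1189, Adnp 0.721 and rank 1199, and Dpm1 0.471 and rank 2966. Ptpn1 (0.02) and Snai1 (-0.092) had correlations near 0. These correlations are a description over libraries that fall into 3 groups, and control and KO libraries form separate clusters in them.

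ChIRP-seq, in which biotinylated oligos complementary to MaTAR25 pull down its chromatin, gives a second readout at these genes. The 4 deposited peak lists hold 61311 to 76806 peaks each, from the even, odd and total oligo pools in 4T1 cells and the total pool in NDL mammary tumor cells, with replicates pooled. In every list the peak with the highest score lay on exon 2 of MaTAR25. A second peak lay over its start, of rank 10045 in the even list and of rank 72 to 465 in the others. The oligos also match 1 strand of the gene's own exons, and whether they caught this DNA directly was not tested. Counted from 5 kb before a gene's start to its end, 51.7 to 59.4% of tested genes had at least 1 peak, depending on the list. Ptpn1 had 5 peaks in the even, 3 in the odd, 5 in the total and 5 in the NDL list, the highest of score 182.9 in the total list, where it ranked 7289. Adnp had 1 to 3 peaks in each list (highest score 413.2, odd pool) and Dpm1 2 or 3 (highest score 310, odd pool).

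Pard6b and Snai1 had no peak in the lists of 4T1 cells, and 2 peaks and 1 peak in the NDL list with scores of at most 47.6. Ube2v1 had 1 peak, of score 27.5, in the odd list. At a score of at least 100, which 18.4 to 26.5% of tested genes reached, Adnp had a peak in all 4 lists, Ptpn1 in 3 and Dpm1 in 2, and the other neighbours in none. The spans compared run from 9620 bases for Snai1 to 52329 bases for Ptpn1, scores are comparable only within a list, and no test was possible on pooled lists.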

How the data were processed

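For RNA-seq, each deposited file holds 1 library as raw counts of reads on genes. The authors used STAR to place single-end poly(A) RNA reads on GRCm38 (mm10) and HTSeq to count them over GENCODE vM5 genes. The sources used here give neither the strand setting nor the overlap mode, so overlapping genes are uncertain. Of 45318 genes, 44585 were matched to GENCODE vM21 for symbols and positions. Each gene stands 3 times, with the same count, in the file of KO2 replicate 2 and was used once. Reads assigned to no gene, 33.9 to 37.0% of a library's listed total, were left out. They include reads listed as ambiguous between genes, 2.278 to 2.382% of that total. Library totals were 25367211 to 61110585 counts; intervals and floors cover counting error only where so named.

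Counts were fitted in R 4.3.3 with edgeR 4.0.16 (TMM, filterByExpr, quasi-likelihood test, Benjamini-Hochberg adjustment over the 15023 genes tested, calls at an adjusted p under 0.1 as in the study) with 3 groups, and with both clones as 1 group. Standard errors were taken from the fold change and its F statistic. The study used DESeq2 (here 1.42.0, an alternative). Single genes were compared by two-sided exact permutation tests on log2(CPM + 1). The fit was tested on simulated data. Control, KO1 and KO2 follow the sample titles.

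ChIRP-seq values are the peak scores deposited by the authors, from HOMER over pooled replicates, after mapping with Bowtie2 and against the Ppib pulldown; they were described without a test. The genotype label of the NDL cells names MMTV-PyMT, whereas the study calls them MMTV-Neu-NDL. The authors' own fold changes and p-values were not used. One leukocyte marker is not reported here.

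Guide sequences came from the study's primer list and were matched to GRCm38 chromosome 2 in Python 3.11.15 (pandas 2.3.3, numpy 2.4.6, scipy 1.17.1, matplotlib 3.10.9). The listed genes, the partner list and the alternatives were chosen with earlier results of these data known. The genes named are the listed genes, Cebpb, genes within 1 Mb called in both clones in the same direction, the nearest tested gene on each side, 15 partners and the 5 genes most correlated with MaTAR25. Alternatives were DESeq2, RLE size factors, other filters, a threshold of 0.05, the replicate block, only the groups compared, leaving out each library, windows of 0.5 and 2 Mb, a pseudocount of 0.1, gene spans only and peak scores of at least 100.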

Additional observations from a re-analysis of the deposited data

Results flagged for a closer look

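Ptpn1 differed between the clones in the test of that difference, with a log2 fold change of KO2 against KO1 of 1.09 (edgeR adjusted p = 0.00474); the means were 70.8 ± 13.8 CPM (SD, n = 3) in KO1 and 151 ± 8.05 CPM (SD, n = 4) in KO2, with 101 ± 1.66 CPM (SD, n = 2) in control. Cebpb also differed between the clones, with a log2 fold change of KO2 against KO1 of -1.39 (edgeR adjusted p = 0.00655) and means of 48.4 CPM in KO1 and 18.4 CPM in KO2. Snai1 had 1 library far from the others of its group, KO2 replicate 3 at 10.4 CPM, where the other 3 KO2 libraries had 18.2 to 19.2 CPM. The 7 measured genes were examined for such a library in KO2, the only group of at least 4, and 1 was found; the 95% critical value used flags about 1 in 20 groups by chance.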

How the results depend on the processing

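Single-gene fold changes were read under 1068 alternatives, which include the main fit at a threshold of 0.05. Of these, 916 kept direction and side of the threshold, 142 lost the call, 2 gained one and 8 changed sign. All sign changes were of uncalled values near 0: Ube2v1 between clones became 0.01 with the replicate block and ran from -0.11 to 0.04 when libraries were left out, Adnp between clones ran from -0.31 to 0.02 in the same way, and Snai1 in KO1 became 0.07 with the replicate block. Counts of listed genes in this section include MaTAR25. With no filter on low counts, the 1 listed gene called in KO1, and in both clones, was MaTAR25 itself. Ptpn1 and Pard6b then lost their KO1 calls (edgeR adjusted p = 0.103 and 0.118), and 3 window genes were called in both clones. With at least 10 counts in every library, where MaTAR25 could not be tested, 1 listed gene was called in both clones and 1 with all KO libraries. At a threshold of 0.05 the listed genes called were 1 in KO1 (MaTAR25), 2 in KO2 (Ptpn1 and Pard6b) and 0 in both clones. With all KO libraries 1 was called (Pard6b), and window genes were 7 in KO2 and 3 in both clones. With only the groups compared, 7 window genes were called in KO2 and 7752 of all genes in KO1 (4750 in the 3-group fit). DESeq2 and RLE size factors left each of these counts of listed and window genes as it was.

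With the replicate block, 1 listed gene was called in KO2, 1 in both clones and 1 with all KO libraries, and window genes were 6 in KO2 and 4 in both clones. The Ptpn1 call in KO2 was lost with the block (adjusted p = 0.122). The numbers do not pair the libraries: deviations of same-numbered libraries from their group means had correlations of -0.149 to 0.0429.

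Leaving out each library in turn, listed genes called were 0 to 3 in KO1, 0 to 3 in KO2, 0 to 2 in both clones, 1 to 2 between clones and 0 to 2 with all KO libraries. Window genes were 2 to 9 in KO1, 4 to 11 in KO2 and 1 to 7 in both clones, and all genes 1482 to 5661 in KO1 and 1366 to 5352 in KO2. The lowest counts of listed genes came without Control replicate 1 or Control replicate 2 (0 in KO1, and 0 or 1 in KO2), where the lone control library is assumed to vary like the other groups, and in KO1 also without KO1 replicate 1. With all KO libraries as 1 group, the median log2 fold change of all genes was 0.202 under DESeq2 and 0.190 with no filter, against 0.055. A total of 0 to 35 counts limits what can be said of MaTAR25, and 22 to 64 counts of Ube2v1. How reads on bases that Adnp, Ube2v1 and Dpm1 share with other genes were counted is not given.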
